A study of Mus musculus with 54 samples.

Results

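Saa3, Lcn2, Hp, Cp, Marco and Nos2 are 6 of the 16632 genes counted in primary cultures of mouse microglia, the macrophages that live in the brain, that were loaded with alpha-synuclein (aSyn) or met cells loaded with it. Saa3 and Lcn2 were chosen by the spread of their counts between replicate experiments, and the other 4 because they are known from the acute-phase and inflammatory response. That spread is therefore only described here, and the choice used no threshold. Dixon's criterion, applied to it in a closing part, marks samples that lie apart and serves as no test. Over the 13169 genes that passed a filter on low counts, Lcn2 had the highest SD of log2 CPM (the count scaled to the library's total) across the data, with 3.63, and Saa3 ranked 6 with 2.69. Marco ranked 5, Nos2 ranked 9, Hp ranked 61 and Cp ranked 1423. All 6 members passed the filter. Lcn2, Hp and Nos2 had at most 32, 14 and 7 counts in any untreated sample, so they passed through the groups in which they are high.

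The microglia came from neonatal C57BL/6 mice, with the cells of 2 brains pooled per flask, were grown above astrocytes in medium that held L929 cell supernatant, and were then shaken loose. All groups share this origin, and the labels name no genetic change. Untreated cells (4 samples from 6 libraries) and aSyn-treated cells (4 samples, labelled aSyn_Donor with no co-culture time) were compared with the partners of a co-culture, in which donors had taken 1 µM aSyn with an Atto-488 tag for 14 h and acceptors carried a violet CellTracer dye given for 15 min. Donors and acceptors were sorted apart by flow cytometry and sequenced at 0, 15, 30, 60, 150 and 300 min, with 3, 4, 4, 3, 4 and 4 donor samples and 3, 4, 4, 4, 4 and 3 acceptor samples. The protocol in the labels gives co-culture times from 15 to 300 min and does not describe the 0 min groups. No purity is given for the sort, and aSyn was added to cultured neonatal cells, so no disease model or brain tissue is described. In what follows, aSyn-loaded cells are the aSyn-treated and all donor samples together.

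The number at the end of each label runs from 1 to 4 and is called the experiment here. Experiments 1 to 4 used cells of passage 3, 1, 2 and 2. Experiment 4 had no library at 0 min for donors or acceptors, experiment 2 had none for donors at 60 min, and experiment 3 had none for acceptors at 300 min. Each library held 7807389 to 15537493 counts, with a median of 13036175.5. The libraries of experiment 4 carry a separate run of library numbers, and Rn45s, the ribosomal RNA precursor, took a mean of 18.2% of the counts in experiment 4 against 8.11%, 7.08% and 4.46% in experiments 1 to 3. What sets experiment 4 apart, in the cells or in the library set, cannot be told apart. Whether samples of one number came from one culture is not stated, so the p-values measure only the spread between these samples, which may be technical. The 9 microglial markers were all in the table and summed to 1944 to 8252 CPM in each sample.

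The acute-phase response is the rapid change in secreted proteins that follows infection or injury, driven by interleukin-1, interleukin-6 and tumour necrosis factor through NF-kB, C/EBP and STAT3. The liver is its best known source, and macrophages and microglia also make some of its proteins. Saa3 encodes serum amyloid A3, a secreted apolipoprotein made outside the liver in mice, and Lcn2 encodes lipocalin-2, which binds the iron-carrying siderophores of bacteria. Hp encodes haptoglobin, which binds free haemoglobin, and Cp encodes ceruloplasmin, a copper ferroxidase that helps iron leave cells. Marco is a scavenger receptor of phagocytes that takes up bacteria and particles, and Nos2 is the inducible nitric oxide synthase, which makes nitric oxide from arginine.

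The members lie on 6 chromosomes of the mouse genome (GRCm38, GENCODE M21 gene bounds). Saa3 is at chr7:46711998-46715700 and Lcn2 at chr2:32384633-32388252, both on the minus strand. Hp is at chr8:109575128-109579172 and Marco at chr1:120474538-120505024, also on the minus strand. Cp is at chr3:19957054-20009145 and Nos2 at chr11:78920787-78960254, both on the plus strand. Cp overlaps Hps3 on the other strand, and whether the authors counted by strand is not given in the sources used here. Hps3 itself gave a log2 fold change of -0.23 between aSyn-treated and untreated cells (edgeR quasi-likelihood test, adjusted p = 0.571).

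Upstream sequence is shown as a description, because C/EBP factors are known drivers of acute-phase genes. Whether it bears on the levels of the members or their spread between experiments was not tested. RefSeq promoter entries (GRCm38.p6) matched 4 of the 6 members, Saa3, Lcn2, Cp and Marco. The C/EBP word TTNNGCAA was searched on both strands of the 250 bases before each start. It was found in Saa3, Lcn2 and Cp and not in Marco, and 9.56% of 32851 such windows in the table hold it. The next lines give the stretch upstream of the Saa3 gene (chr7:46715701-46715926, minus strand) and 30 bases around the word for Lcn2 (chr2:32387937-32387966, minus strand) and Cp (chr3:19957168-19957197, plus strand), 5′ to 3′ with the word in capitals.
Saa3: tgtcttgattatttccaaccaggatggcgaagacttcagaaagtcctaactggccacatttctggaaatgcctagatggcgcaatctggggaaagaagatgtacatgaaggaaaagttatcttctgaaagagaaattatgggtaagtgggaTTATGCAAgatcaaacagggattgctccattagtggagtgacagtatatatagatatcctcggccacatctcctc
Lcn2: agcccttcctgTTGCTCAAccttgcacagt
Cp: attagttactcTTTTGCAAcattaaattgt
The word lies 99 to 92 bases before the RefSeq start of Saa3. In Lcn2 it is on the opposite strand, 216 to 209 bases before the start, and in Cp it lies 70 to 63 bases before one of its RefSeq starts. The Lcn2 and Cp stretches fall inside the GENCODE bounds of their genes. The STAT word TTCNNNGAA, found in 7.02% of all windows, and the NF-kB consensus, found in 3.9%, had no match in the 4 genes. TATAAA on the sense strand, found in 7.59% of windows, occurred in Cp at 25 to 20 bases before a start. A match is a string of letters, and no binding was measured.

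Saa3 had the most counts of the members, and its level depended strongly on the experiment. Untreated cells of experiments 1 to 4 held 57.3, 127, 307 and 53.1 CPM, and aSyn-treated cells held 194, 288, 3730 and 21177 CPM. Within each experiment the treated sample was higher, by 3.38, 2.28, 12.1 and 399-fold. The ranges of the groups still overlapped, because treated cells of experiments 1 and 2 held less than untreated cells of experiment 3. Donors kept to the level of their own experiment: with the aSyn-treated sample included, aSyn-loaded cells held 194 to 256.4 CPM in experiment 1 (7 samples), 277 to 323 in experiment 2 (6 samples), 3730 to 5757 in experiment 3 (7 samples) and 19053 to 22705 in experiment 4 (6 samples). In experiment 4 this single gene took 1.67% to 2.10% of all counts of each aSyn-loaded library. The mean over experiments was 136 CPM ± 119 (SD, n = 4) in untreated and 6347 CPM ± 10022 (SD, n = 4) in aSyn-treated cells, so each SD was near or above its mean.

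Lcn2 was close to absent from untreated cells and reached high levels in experiment 4 alone. Untreated cells held 0, 0.0872, 0.5999 and 1.21 CPM in experiments 1 to 4, which are 0, 2, 7 and 32 counts. The aSyn-treated cells held 0.221, 1.14, 14.4 and 626 CPM. The floor of 3 counts corresponds to 0.193 to 0.384 CPM across libraries, and the aSyn-treated samples of experiments 1 and 2 held 3 and 16 counts. Treated cells of experiment 4 held 519 times the level of untreated cells. That untreated value sums libraries of 3 and 29 counts, and against each alone the ratio, by CPM of the library total, was 2665 (95% counting interval 911 to 12900) and 250, against 476 for their sum. The Saa3 ratio of experiment 4, whose untreated libraries held 451 and 958 Saa3 counts, was 600.1 and 255.99 against each and 366 against their sum on this scale. In experiment 3 the ratio was 24.0, in experiment 2 it was 13.04 on 2 untreated counts (95% counting interval 3.07 to 117), and experiment 1 gave no ratio because both samples were at the floor. Across all aSyn-loaded samples Lcn2 held 0.0835 to 1.59 CPM in experiments 1 and 2, 8.98 to 14.4 CPM in experiment 3 and 527 to 658 CPM in experiment 4. These ranges of experiments 3 and 4 overlap neither each other nor those of experiments 1 and 2.

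Nos2 followed the same order of experiments at lower counts. Untreated cells held 0, 0.305, 0.514 and 0.0754 CPM, or at most 7 counts, and aSyn-treated cells held 0.663, 2.70, 3.58 and 57.5 CPM. It was the only member whose aSyn-treated samples all lay above all untreated samples, a separation in this direction that 4.5% of all tested genes showed. The treated sample was 8.85-fold higher in experiment 2 and 6.96-fold higher in experiment 3. It was at least 2.19-fold higher in experiment 1, where the untreated count of 0 was set to the floor of 3 counts of that library, and 763-fold higher in experiment 4 on 2 untreated counts (95% counting interval 210 to 6313). The donors of experiment 4 held 90.6, 42.4, 96.5, 101 and 62.5 CPM at 15, 30, 60, 150 and 300 min, with no steady order over time.

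**Figure D1:**
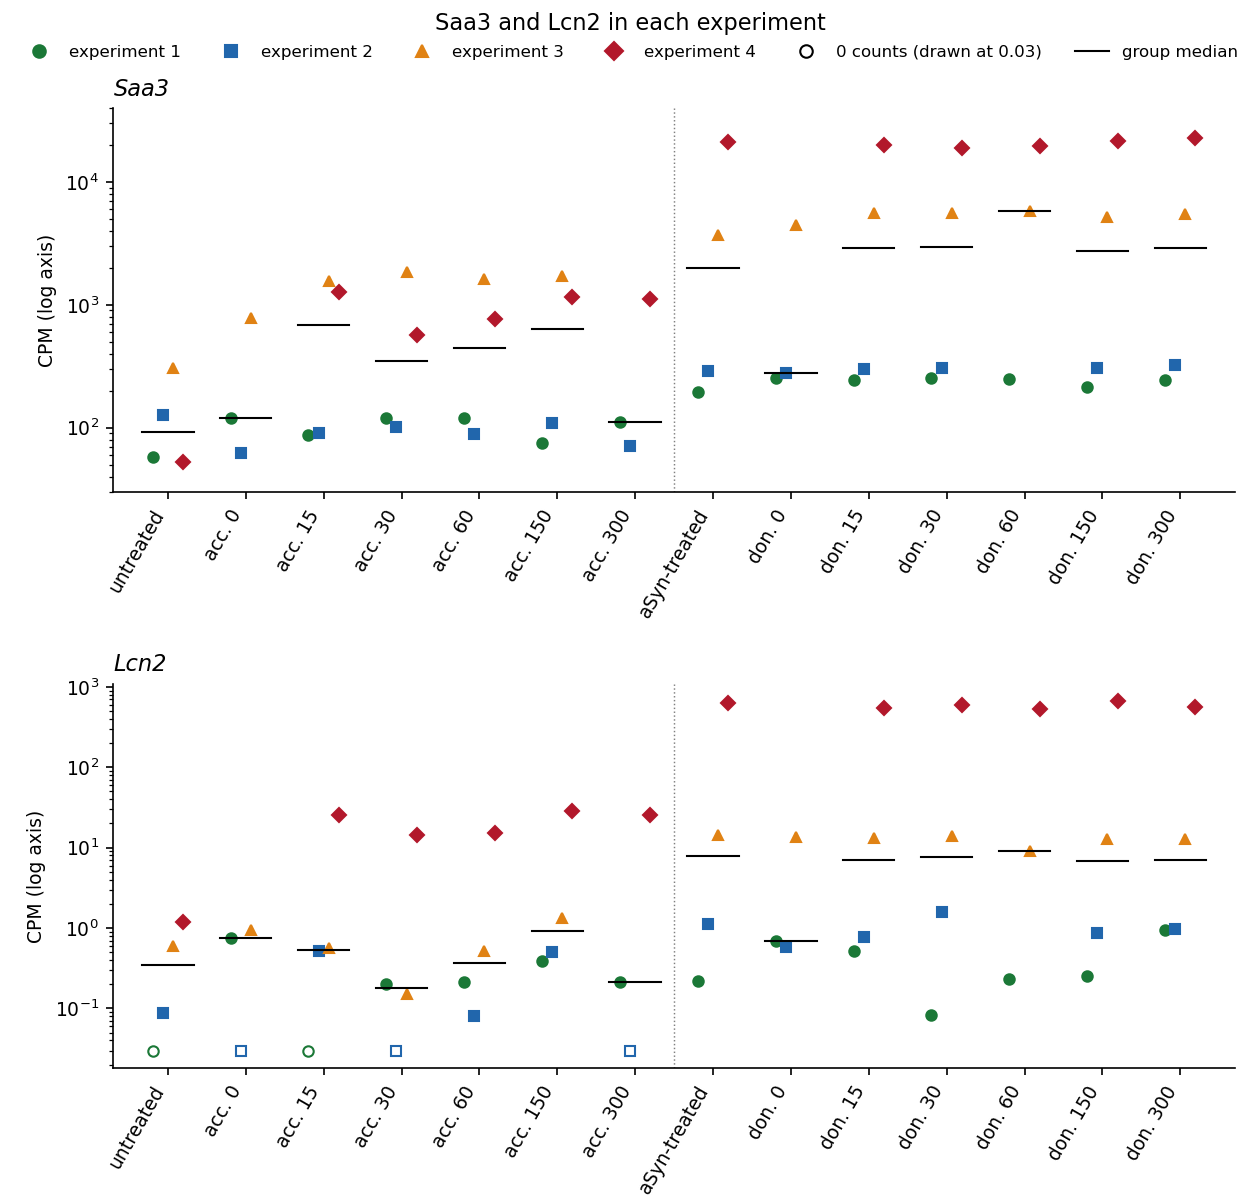
Saa3 and Lcn2 in each sample, in CPM on a log axis, by group along the horizontal axis (acc., acceptors; don., donors; times in min), with a marker for each experiment, a line at each group median and open markers at 0.03 CPM for 0 counts. The aSyn-loaded samples of experiment 4 lie at 19053 to 22705 CPM for Saa3 and 527 to 658 CPM for Lcn2, above every sample of the other experiments.

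Marco, like Hp, had its highest levels in experiment 3 and not in experiment 4. Untreated cells held 2.62, 0.0436, 19.1 and 1.70 CPM, and aSyn-treated cells held 7.96, 7.18, 146 and 114 CPM. The within-experiment ratios were 3.03, 7.64 and 67.1 in experiments 1, 3 and 4, and 165 in experiment 2 on 1 untreated count (95% counting interval 28.9 to 6564). Over all aSyn-loaded samples Marco ran from 146 to 268.8 CPM in experiment 3 and from 101 to 151 CPM in experiment 4, which overlap, and from 4.92 to 14.8 CPM in experiments 1 and 2.

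Cp was expressed in every sample, and only experiment 4 stood apart. Untreated cells held 13.6, 26.8, 20.9 and 11.8 CPM, and aSyn-treated cells held 22.9, 24.1, 33.6 and 170 CPM. The ratios were 1.68, 0.898 and 1.61 in experiments 1 to 3 and 14.4 in experiment 4. By CPM of the library total, that of experiment 2 was 1.19 and 0.806 against each untreated library alone, and 0.945 against their sum. Aside from the aSyn-loaded samples of experiment 4, at 170 to 198 CPM, no sample exceeded 58.4 CPM.

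Hp stayed low throughout, with 109 counts in its highest sample. Untreated cells held 0, 0.0872, 1.20 and 0.302 CPM, and aSyn-treated cells held 0.0737, 0.213, 4.77 and 3.40 CPM. The ratio was 3.98 in experiment 3 and 11.3 in experiment 4, while both samples of experiments 1 and 2 were at or under the floor. Hp was highest in aSyn-loaded cells of experiment 3, at 4.77 to 8.73 CPM against 1.35 to 3.40 CPM in experiment 4.

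**Figure D2:**
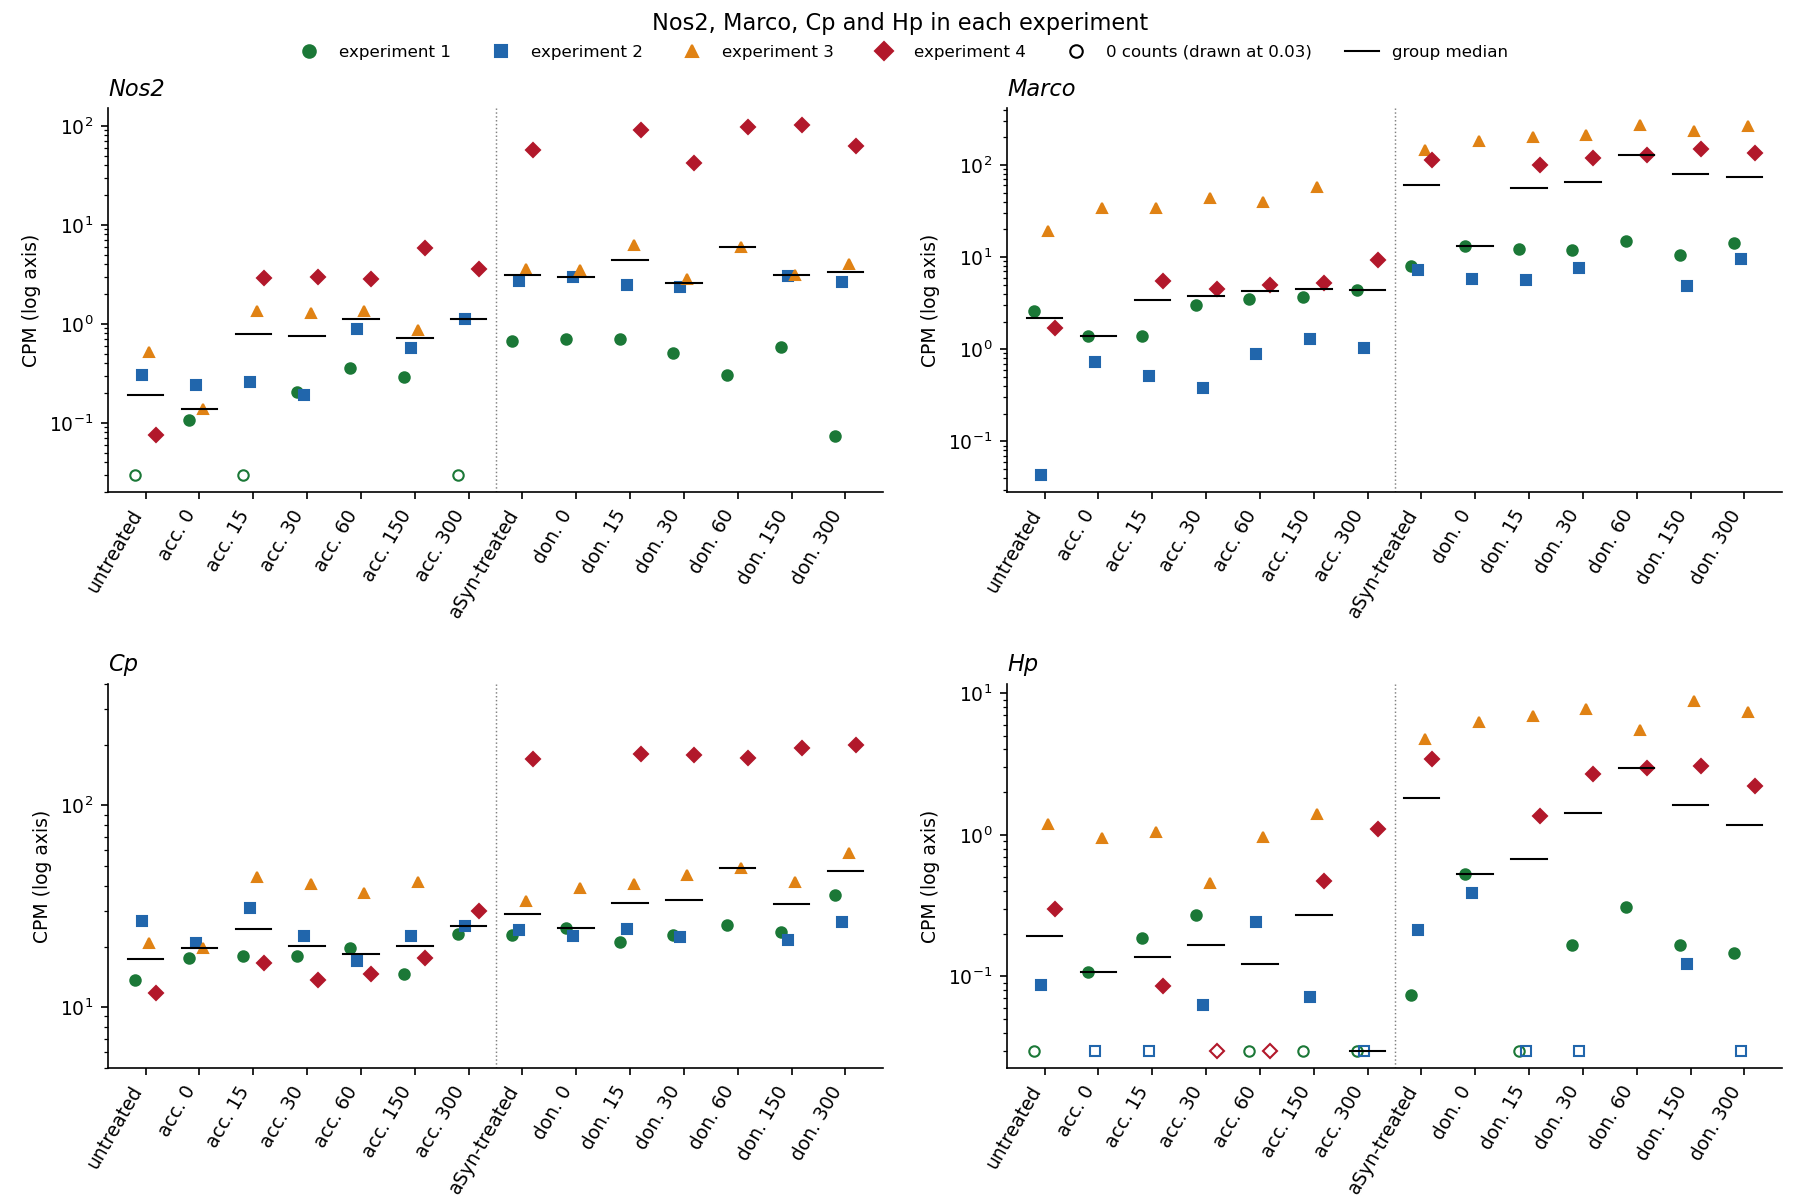
Nos2, Cp, Marco and Hp in each sample, in CPM on a log axis, by group along the horizontal axis (acc., acceptors; don., donors; times in min), with a marker for each experiment, a line at each group median and open markers at 0.03 CPM for 0 counts. Experiment 4 is highest for Nos2 and Cp in aSyn-loaded cells, and experiment 3 is highest for Marco and Hp.

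The number of an experiment and the exposure to aSyn together described most of the spread of these genes. For log2 CPM over the 52 samples, experiment alone held 63.9% of the sum of squares for Saa3, 71.7% for Lcn2, 63.9% for Hp, 60.3% for Marco, 54.3% for Nos2 and 27.7% for Cp, against a median of 33.9% over all tested genes. Experiment combined with loading (aSyn-loaded or not) held 89.5% to 96.3% for the 6 members, against a median of 59.4%. These shares describe the spread that chose the members and support nothing further.

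The main question was whether exposure to aSyn changed the members. Without regard to experiment, none of the 6 was called by edgeR's quasi-likelihood test at a Benjamini-Hochberg adjusted p under 0.05, where 2.5% of the 13169 genes were called. The log2 fold changes of aSyn-treated over untreated cells were 8.20 ± 3.08 (SE) for Lcn2, 6.15 ± 2.00 for Nos2, 5.54 ± 1.92 for Saa3, 3.60 ± 1.66 for Marco, 2.43 ± 1.67 for Hp and 1.77 ± 0.747 for Cp. Their adjusted p in the edgeR test were 0.146, 0.0902, 0.115, 0.254, 0.478 and 0.205, and 5 of the 6 had an unadjusted p under 0.05. DESeq2 called Saa3 (adjusted p = 0.00216) and Nos2 (0.00435), with 4.58% of genes called. It gave no p or adjusted p for Lcn2, here or in any other comparison.

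With the experiment number as a block, each member except Cp was called higher with aSyn, in an edgeR fit that called 19.2% of all genes and 8.95% as higher. Lcn2, Nos2 and Hp entered the test through the groups in which they are high, so neither the number of members called nor their p-values support anything. Saa3 and Lcn2 were also chosen for their spread, so their p-values are descriptions. Each SE draws on all 14 groups, which repeat the same 4 experiments. The log2 change in this fit was 8.15 ± 0.793 for Lcn2 (SE, adjusted p = 1.56e-09 in edgeR's test), 3.98 ± 0.518 for Marco (adjusted p = 6.66e-07) and 5.65 ± 0.895 for Nos2 (adjusted p = 2.06e-05). Saa3 rose by 2.81 ± 0.701 (adjusted p = 0.00389 in the same edgeR fit) and Hp by 2.40 ± 0.858 (adjusted p = 0.0433), whereas Cp had 1.15 ± 0.558 (adjusted p = 0.145). The treated sample was higher in 4 of 4 experiments for every member except Cp, with 3 of 4, although for Lcn2 in experiment 1 and Hp in experiments 1 and 2 both samples were at or under the floor. The block assumes a single fold change for all experiments, while the measured folds of Saa3 ran from 2.28 to 399. With the block and only these 2 groups in the fit, where 1.2% of genes were called, 1 of 4 tested members was called, Lcn2 (edgeR adjusted p = 0.033), and the calls of Saa3 and Marco were lost while Hp and Nos2 did not pass the filter. Without experiment 3 the calls of Saa3 (adjusted p = 0.0591) and Hp (0.252) were lost from the blocked edgeR fit. Leaving out experiments 1, 2 and 3 gave 5, 5 and 3 member calls, with 15.8%, 14.1% and 10.5% of all genes called. Without experiment 4, where 12.4% of genes were called, only Hp was lost (adjusted p = 0.28), and the log2 change fell to 4.08 for Lcn2, 3.09 for Marco, 3.17 for Nos2 and 1.85 for Saa3.

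**Figure D3:**
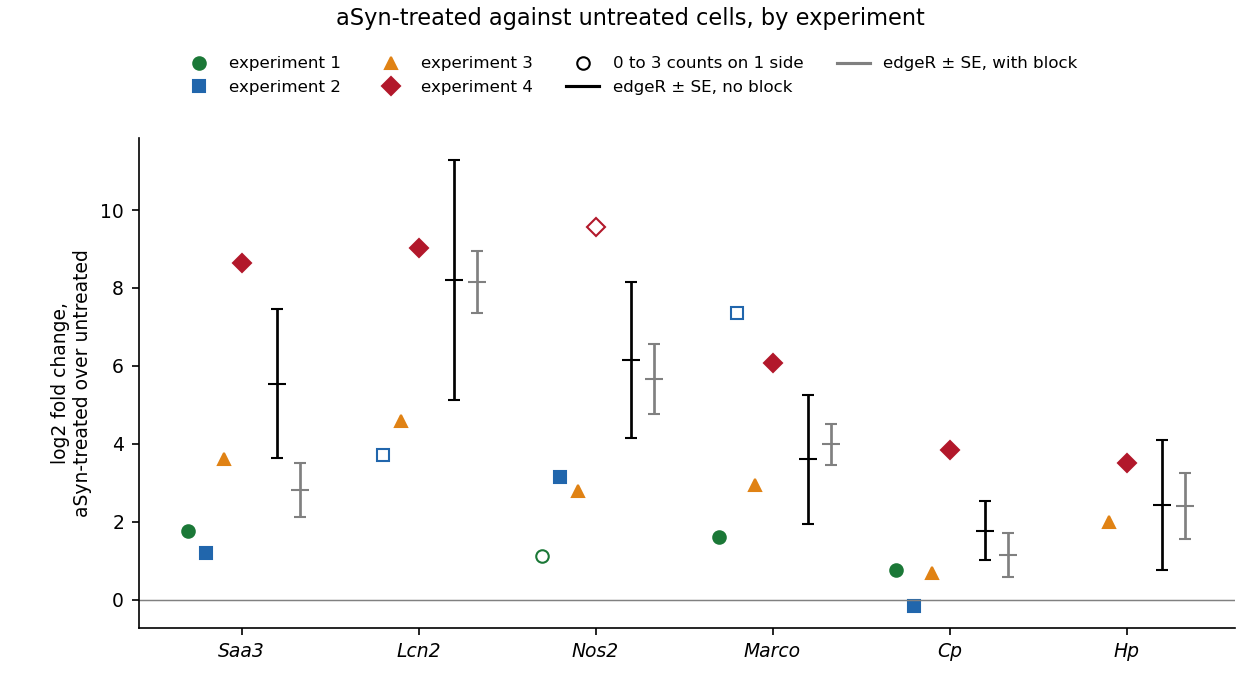
Log2 fold change of aSyn-treated over untreated cells for the 6 members, with a marker for each experiment (open where 1 side had 0 to 3 counts) and the edgeR estimate ± SE without the block (black) and with it (grey). The experiments of Saa3 run from a 2.28-fold to a 399-fold difference, and the blocked estimate of Saa3, 2.81, lies below that without the block, 5.54.

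Donor cells were next set against the aSyn-treated cells that carry no co-culture time. Of 36 tests (6 members at 6 times), edgeR called 0 with or without the block, and 0 had an unadjusted p under 0.05 in either fit. DESeq2, which gave no p for Lcn2, also called 0, with 0 at an unadjusted p under 0.05. Among all genes 0% were called from 0 to 150 min, and at 300 min 0.0304% without and 0.304% with the block. In Saa3 the ratio of a donor sample to the aSyn-treated sample of its experiment lay between 0.900 and 1.54 in 22 pairs, and it was above 1 in 18 of them. Cp ranged from 0.898 to 1.74 and Marco from 0.685 to 1.86, and they were higher in 17 and 18 of 22 pairs. Lcn2 was higher in 7 and lower in 15, Nos2 higher in 11 and lower in 11, and Hp higher in 12 and lower in 10. Some pairs of Lcn2 and Hp were at or under the floor. The pairs of an experiment share the same aSyn-treated sample, so they are not independent. With the block and only the groups compared in the fit, 15 of 36 had an unadjusted p under 0.05 and 1 was called. This was Marco at 300 min, with a log2 difference of 0.58 ± 0.12 (SE) and an adjusted p of 0.0324 in edgeR's test, where 2.15% of genes were called.

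Acceptor cells, which were not given aSyn themselves, held more Lcn2 and Saa3 than untreated cells in experiment 4, and overlapped them in Lcn2 in the other experiments. Acceptors of experiment 4 held 25.2, 14.3, 15.4, 28.9 and 25.3 CPM of Lcn2 at 15, 30, 60, 150 and 300 min, against 1.21 CPM in its untreated cells, or 11.9 to 24.0 times as much. By CPM of the library total, against its untreated libraries of 3 and 29 counts taken alone, these ratios were 64.9 to 130 and 6.08 to 12.2. Acceptors of experiments 1 to 3 held 0 to 1.33 CPM, a range that overlaps the untreated range of 0 to 1.21 CPM. Saa3 in acceptors of experiment 4 was 1281, 573, 763, 1166 and 1107 CPM at the same times, 10.8 to 24.1 times the untreated level. Against each untreated library alone, by CPM of the library total, these were 17.3 to 38.1 and 7.36 to 16.2 times. In experiment 3 it was 776 to 1835 CPM, or 2.53 to 5.97 times, in experiment 1 1.32 to 2.11 times and in experiment 2 0.489 to 0.857 times. Against each untreated library of experiment 2 alone, by library-total CPM, it was 0.609 to 1.07 and 0.482 to 0.849 times. Acceptors of experiment 4 also held 2.87 to 5.77 CPM of Nos2 against 0.0754 CPM (2 untreated counts). Marco was 2.6 to 5.5 and Cp 1.15 to 2.54 times the untreated level there. Over 22 pairs of the same experiment Marco was higher in acceptors in 20, Saa3, Cp and Nos2 in 16 each, Lcn2 in 14 and Hp in 7. The pairs of an experiment share its untreated sample, so they are not independent and these counts are descriptions. For Marco, the untreated sample of experiment 2 held 1 count. In Lcn2, Hp and Nos2 only 14, 11 and 17 of the 22 pairs had a sample above the floor.

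In the tests of acceptors against untreated cells, edgeR without the block called 0 of 36, with 0 at an unadjusted p under 0.05. DESeq2, which gave no p for Lcn2, called 0, with 1 at an unadjusted p under 0.05. It called 0.00759%, 0.258%, 0.258%, 0.524%, 0.737% and 0.0304% of genes from 0 to 300 min. The share of all genes called by edgeR was 0% at 0, 15 and 300 min and 0.114%, 0.0683% and 0.137% at 30, 60 and 150 min. With the block 6 of 36 were called, all of them Lcn2, where 0.995%, 2.25%, 3.6%, 4%, 4.78% and 0.623% of genes were called from 0 to 300 min. Lcn2 passed the filter through the groups in which it is high, so neither this number of calls nor its p-values support anything. The log2 changes of Lcn2 were 4.91, 3.77, 2.87, 3.17, 4.44 and 3.74, with adjusted p of 0.0285, 0.00865, 0.039, 0.021, 0.00101 and 0.0205 in edgeR's test. At 0 min the acceptors held 0.754, 0 and 0.955 CPM, all of experiments 1 to 3, so that call rests on a group with no sample of experiment 4. Without experiment 4 no Lcn2 call was left (adjusted p 0.356 to 0.918 in the blocked edgeR fit), and the single member called was Marco at 150 min (log2 change 1.51, adjusted p = 0.0131). In that fit 2.87%, 1.93%, 4.56%, 2.8%, 3.19% and 0.0765% of genes were called from 0 to 300 min. With the block and only the groups compared, Lcn2, Hp and Nos2 did not pass the filter and 0 of 18 tests of the other 3 members was called, with 10 at an unadjusted p under 0.05 and a lowest adjusted p of 0.105 in edgeR's test, where 0% to 1.46% of genes were called.

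At each time donors held more Saa3 and Marco than the acceptors they had been cultured with. In 21 of 21 pairs of the same experiment and time Saa3 was higher in donors, by 2.04 to 2.84-fold in experiment 1, 2.83 to 4.58-fold in experiment 2, 3.04 to 5.74-fold in experiment 3 and 15.7 to 33.2-fold in experiment 4. Marco was higher in 21 of 21 pairs, by 2.82 to 28.5-fold. Across all tested genes 2.35% were higher in donors in every pair. Nos2 was higher in 20 of 21 pairs, Lcn2 in 18, and Hp and Cp in 16 each.

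Of the 36 tests between donors and acceptors, edgeR without the block called 0, with 13 at an unadjusted p under 0.05 and a lowest adjusted p of 0.265. DESeq2, which gave no p for Lcn2, also called 0, with 20 at an unadjusted p under 0.05 and 0.63%, 1.61%, 1.69%, 0.926%, 0.668% and 0.152% of genes called. The background in the edgeR fit was 0.251%, 0.888%, 0.805%, 0.418%, 0.167% and 0.0304% of genes from 0 to 300 min. With the block 22 of 36 were called, against 4.28%, 9.57%, 10.8%, 6.7%, 5.19% and 1.38% of all genes. Lcn2, Nos2 and Hp entered through the groups in which they are high, so neither this number of calls nor their p-values support anything. Lcn2, Marco and Nos2 were each called at 6 of 6 times, with log2 differences of 3.03 to 5.26, 2.66 to 3.21 and 2.73 to 3.96. Saa3 was called at 4 of 6 times, from 15 to 150 min, with log2 differences of 1.82 to 2.52 over all times, and Hp and Cp at none. Leaving out experiments 1, 2, 3 and 4 in turn gave 16, 13, 14 and 17 calls of 36 with the block. The fits without experiments 1, 2 and 3 called 0.15% to 6.46%, 0.285% to 5.47% and 1.04% to 5.51% of all genes over the 6 times. With only the groups compared in a blocked fit 7 of 30 tests were called (Marco at 0, 15 and 30 min, Saa3 at 0 min, Nos2 at 15 min and Lcn2 at 30 and 300 min), where 0.0257% to 4.58% of genes were called. The calls of Saa3 went to 0, 0 and 0 of 6 without experiments 1, 2 and 3 and to 6 of 6 without experiment 4, and those of Lcn2 and Nos2 went to 2 of 6 each without experiment 4. Without experiment 4 the blocked fit called 11.1%, 6.66%, 8.58%, 4.5%, 3.26% and 1.17% of all genes from 0 to 300 min.

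The level in acceptors was further set against that in their donors, as a description, because the sort gives no purity. In experiment 4 the acceptor level was 3.01% to 6.37% of the donor level for Saa3, 2.42% to 4.63% for Lcn2, 3.51% to 6.97% for Marco, 2.97% to 7.07% for Nos2 and 7.62% to 15.1% for Cp. Another 82 genes, none of them a member, had at least 16 times the untreated level in aSyn-treated cells of that experiment, with at least 20 CPM, and their median was 5.36% to 11.8% over the 5 times. In experiment 3 the share was 17.4% to 32.9% for Saa3 and 14.6% to 24.5% for Marco, against a median of 16.6% to 21.9% for 3 such genes. Nos2 varied from 3.88% to 45.5% there. Cp, at 50.6% to 108%, was higher in acceptors than in donors at 15 and 150 min. Lcn2, at 1.11% to 10.4% in experiment 3, lay below Saa3 there. These shares include what untreated cells held. With the untreated level subtracted on both sides, Saa3 was at 2.74% to 6.12% and Cp at 1.08% to 9.74% in experiment 4. In experiment 3 Saa3 was then at 11.3% to 28.8%, Cp at -6.62% to 116% and Lcn2 at -3.39% to 5.96%. The part that donor cells or their RNA in the acceptor gate had in these values was not tested.

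**Figure D4:**
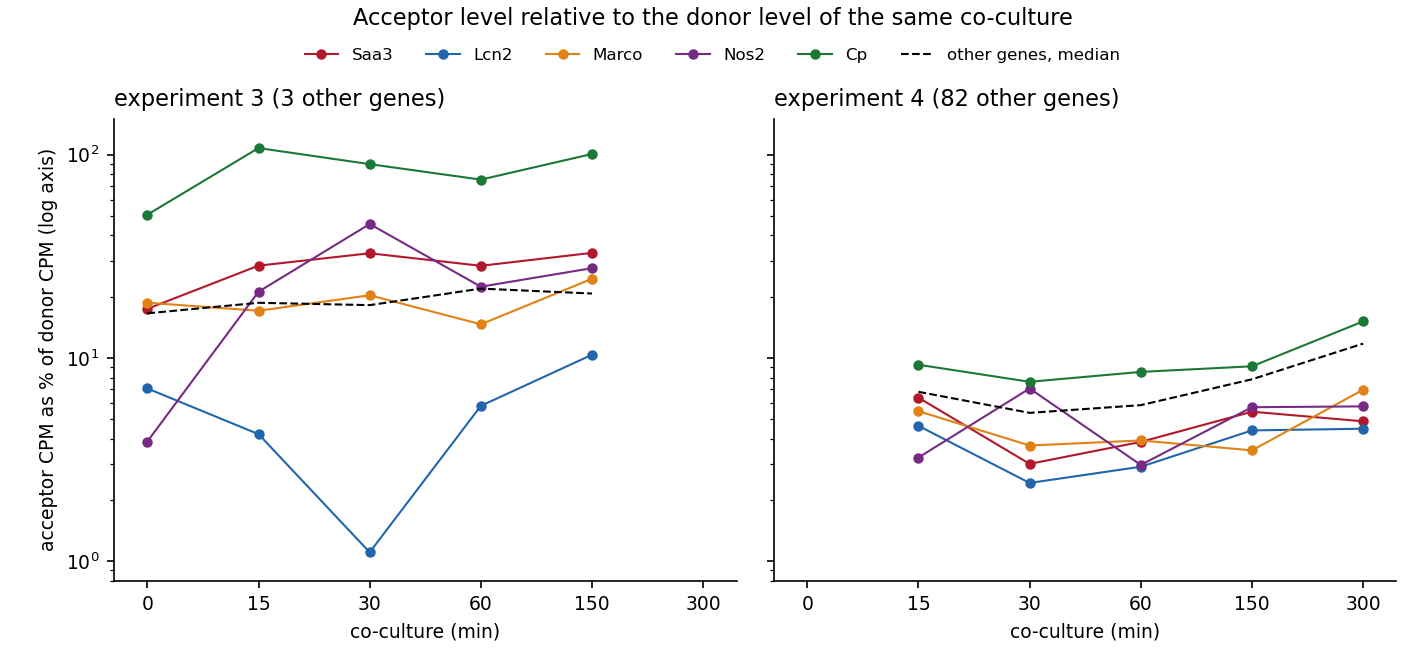
Level in acceptors as a percentage of the level in donors of the same experiment, on a log axis, by co-culture time in min, for 5 members in experiments 3 and 4, with a dashed line for the median of other genes at least 16-fold higher with aSyn. In experiment 4 Saa3 lies at 3.01% to 6.37% and Lcn2 at 2.42% to 4.63%, and in experiment 3 Saa3 lies at 17.4% to 32.9%.

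For changes over the co-culture itself, samples at 300 and 15 min were compared. Between 15 and 300 min, edgeR called 0 of 12 tests in donors and acceptors with or without the block, where 0.0759% of genes were called in donors without and 0.744% with the block and 0% in acceptors in both fits. DESeq2 gave no p for Lcn2 and called none of these 12, with 0 at an unadjusted p under 0.05. The test over all times called 0 of 12, against 0.0607% of genes in donors and 0.00759% in acceptors (with the block 0.577% and 0.137%). The difference between the changes of donors and acceptors was called for 0 of 6 members, with 0 at an unadjusted p under 0.05, and for 0% of genes without and 0.0152% with the block. In donors Marco was higher at 300 than at 15 min in 4 of 4 experiments, by 1.18 to 1.65-fold, and Cp in 4 of 4, by 1.08 to 1.72-fold. Marco was also higher in acceptors in 3 of 3, by 1.70 to 3.11-fold, while the edgeR estimate without the block was -1.09 on the log2 scale, with no sample of experiment 3 at 300 min. The blocked edgeR fit of all groups put the log2 change of Marco in donors at 0.44 ± 0.405 (SE, adjusted p = 0.78). With the block and only the groups compared it was 0.42 ± 0.0934 (SE, edgeR adjusted p = 0.0231), the 1 call of 10 tests in that fit, where 4.42% of genes were called in donors.

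By mean log2 CPM the 14 groups ran from donors at 60 min (Saa3 11.57 ± 3.26, SD, n = 3) to untreated cells (6.71 ± 1.18, SD, n = 4) for Saa3. The 7 aSyn-loaded groups held the first 7 places and the 6 acceptor groups came next. The donors at 60 min had no sample of experiment 2, and the 0 min groups, which came last among donors and among acceptors, had none of experiment 4. In none of the 6 members did any of the 13 neighbours in this order differ by more than the larger of their SDs.

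The genes known to act with the members were described by lists drawn from textbook roles, for aSyn-treated against untreated cells. These lists were chosen with earlier results of these data known, so their counts of calls are descriptions. Among 14 tested genes of 30 other acute-phase genes, 0 were called without the block and 4 were higher and 0 lower with it, which is set against the 19.2% of all genes called, and 8.95% called higher, in the blocked fit, here and for the lists that follow. Their median log2 change was 1.35, against -0.04 over all genes. Some of them, such as Saa1, Orm1 and Ptx3, lay near the floor in untreated cells and passed the filter through groups in which they are high. This median and those of the lists that follow are therefore descriptions only. C3, the central complement component, held 143, 459, 565 and 532 CPM in treated cells against 40.2, 248.3, 151 and 25.2 CPM in untreated cells, and rose by 2.08 in the blocked edgeR fit (adjusted p = 0.00103). Cd14, the co-receptor for bacterial lipopolysaccharide, rose by 0.79 (adjusted p = 0.0135, edgeR with the block) from 767 CPM ± 241.3 to 1364 CPM ± 272 (SD, n = 4). Saa1 and Orm1 were also called higher with the block (edgeR adjusted p = 0.0189 and 0.0427), but both held 0 counts in all untreated samples, and in treated cells 2.62 and 0.611 CPM in experiment 4 and no more than 0.0711 CPM elsewhere. The Saa1 value is uncertain. Of the 50-base words in the last 500 bases of Saa3 transcripts, 65 of 902 occur also in another gene. Of these, 9 occur in Saa1 or Saa2. Reads may therefore be split between Saa3, Saa1 or Saa2 and further genes, and the other 5 members share no such word with another gene. Saa1 counts per 10000 Saa3 counts were 0, 1.45, 1.11 and 1.11 over experiments 1 to 4.

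Of 20 inducers and transcription factors of the response, 19 were tested. None was called without the block, 7 were higher and 0 lower with it, and the median log2 change was 0.64. Il1b, the cytokine interleukin-1 beta, held 99.7, 301, 195 and 2619 CPM in treated cells against 14.0, 65.3, 13.6 and 23.3 CPM in untreated cells, with the highest value in experiment 4. It rose by 3.29 with the block (edgeR adjusted p = 0.000166). Socs3, the feedback inhibitor of STAT3 signalling, held 19.0, 20.97, 25.1 and 182 CPM against 2.83, 3.31, 6.43 and 3.51 CPM (log2 change 2.99, edgeR adjusted p = 3.42e-05 with the block). Il1a, encoding interleukin-1 alpha, held 0.516, 1.42, 1.27 and 120 CPM against 0, 0.218, 0.257 and 0.603 CPM (edgeR adjusted p = 1.55e-05 with the block). Only experiment 4 stood apart in Il1a, while in Lcn2 experiment 3 also lay above experiments 1 and 2. Il6 held 9.34 CPM in treated cells of experiment 4 and at most 0.159 CPM in the others (edgeR adjusted p = 2.67e-05 with the block). Its untreated cells held 0, 0, 0 and 0.0754 CPM. Both Il1a and Il6 lay near the floor in untreated cells and passed the filter through groups in which they are high. Their p-values therefore support nothing further. Nfkb2, an NF-kB subunit, rose by 0.67 with the block (edgeR adjusted p = 0.00531). Its lowest level in treated cells, 61.4 CPM, was that of experiment 4, where the others held 70.6 to 77 CPM.

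Receptors and partners of the members moved in both directions. Of 17 listed, 14 were tested, with 0 called without the block and 6 higher and 3 lower with it, and the median log2 change was 0.28. Mmp9, the metalloproteinase that binds lipocalin-2, held 68.2, 20.1, 196 and 36.4 CPM in treated against 5.15, 2.84, 62.5 and 7.69 CPM in untreated cells, and rose by 2.57 (edgeR adjusted p = 3.69e-06 with the block). Fth1, the heavy chain of the iron store ferritin, rose by 0.99 (edgeR adjusted p = 3.69e-06 with the block) from 14480 to 29850 CPM in the mean. The formyl peptide receptor Fpr1 rose by 2.67 (edgeR adjusted p = 0.000861 with the block). Lrp1 fell by 0.82 and Scarb1, a receptor for lipoproteins and serum amyloid A, fell by 0.82, with edgeR adjusted p of 0.000122 and 0.00109 with the block.

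In the arginine and nitric oxide pathway 11 of 13 genes were tested, with 1 higher without the block and 4 higher and 1 lower with it, and a median log2 change of 1.07. Slc7a1, an arginine transporter, rose in both fits, by 1.12 ± 0.25 without the block (SE, edgeR adjusted p = 0.00691), from 33.5, 25.7, 21 and 26.8 CPM to 66.5, 61.6, 52.1 and 51.9 CPM in experiments 1 to 4. Its 2 groups did not overlap, and its ratio was not set apart in experiment 4 as that of Nos2 was. With the block Odc1, which makes polyamines from ornithine, rose by 1.03 (edgeR adjusted p = 0.00357). Ass1 and Asl, which rebuild arginine from citrulline, rose by 1.60 and 0.41 in that fit (edgeR adjusted p = 0.0275 and 0.00953). Spr, an enzyme of the Nos2 cofactor tetrahydrobiopterin, fell by 0.38 (edgeR adjusted p = 0.0373). Of 10 other scavenger receptors 8 were tested, with a median log2 change of 0.14. Cxcl16 was the 1 called without the block (log2 change 0.82, edgeR adjusted p = 0.0261), and with the block it was higher and Cd68 lower (log2 change -0.47, edgeR adjusted p = 0.0159).

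Markers of other cells were measured beside these values, since Lcn2, Hp and Marco are also made outside microglia. In these bulk samples, fewer cells of a type and less RNA per cell cannot be told apart. Of 10 neutrophil markers 3 were in the table, S100a8, Camp and Cxcr2, and the other 7 were not analysed here. Their summed level was 0.131 to 0.857 CPM in untreated cells, 0 to 9.40 CPM in aSyn-loaded cells and 0.135 to 1.93 CPM in acceptors, and it was 4.84 to 9.40 CPM in aSyn-loaded cells of experiment 4, where Lcn2 was highest. S100a8 reached at most 8.46 CPM, and Camp was at 0 in 33 of 52 samples. The 9 astrocyte markers summed to 11.7 to 156 CPM in untreated cells, 8.99 to 39.5 CPM in aSyn-loaded cells and 8.02 to 49.6 CPM in acceptors, and Gfap was at 0 in 18 samples. Astrocyte markers were higher in experiments 3 and 4, with medians in aSyn-loaded cells of 15.2, 11.8, 24.8 and 25.7 CPM in experiments 1 to 4, in acceptors of 12.7, 14.0, 43.2 and 35.9 CPM, and in untreated cells levels of 11.7, 20.2, 90.0 and 156 CPM. The 6 fibroblast markers, all in the table, followed the same experiments, with medians in aSyn-loaded cells of 1.92, 0.499, 12.1 and 11.5 CPM and in untreated cells levels of 1.82, 1.92, 40.4 and 38.5 CPM. Within experiments 3 and 4 both lists were higher in untreated than in aSyn-loaded cells. In aSyn-loaded cells, markers of monocytes and border macrophages (5 of 6 in the table) summed to 131 to 345 CPM against 197 to 296 CPM in untreated cells, those of endothelium (3 of 5) to 9.05 to 35.4 against 4.54 to 29.0 CPM, and of oligodendrocytes (7 of 7) to 70.4 to 248.3 against 119 to 567 CPM. The microglial markers moved with experiment 4 too, with 1944 to 2241 CPM in its aSyn-loaded cells against 3334 to 3966 CPM in its acceptors. The part of these cells and of the lower microglial markers in the member values was not tested.

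The genes whose log2 CPM was most like each member over the 52 samples were taken by Pearson r, with r after removal of each experiment's mean given second. For Saa3 they were Sod2 (0.942 and 0.942), Gstm1 (0.935 and 0.861), Csta2 (0.934 and 0.832), Clec4e (0.933 and 0.949) and Prdx5 (0.931 and 0.96). For Lcn2 they were Rab10 (0.967 and 0.896), Pdpn (0.962 and 0.884), Ptges (0.961 and 0.901), Procr (0.954 and 0.931) and Ptges3 (0.953 and 0.839). Neither list holds another member. For Nos2 the 5 were Slc35b1, Il1b, Riok3, Mcoln2 and Eif5 (0.936 to 0.95), for Cp they were AA467197, Ebi3, Stard7, Acsl5 and Cybb (0.907 to 0.922), and for Marco H2-M2, Mmp14, Mrpl52, Slc7a11 and Runx3 (0.903 to 0.933). Hp was nearest to Marco (0.864) and next to Cav1, Saa3, Runx3 and Clec4d (0.82 to 0.842), and its r with Marco dropped to 0.679 once the experiment means were removed. Between members r ran from 0.588 for Hp and Nos2 to 0.902 for Lcn2 and Nos2. All points share the libraries and experiments, and these values are descriptions.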

How the data were processed

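Primary mouse microglia were profiled by QuantSeq 3′ FWD sequencing with 50 bp reads, per the labels' protocols. For 54 libraries the authors deposited counts per gene, not normalized, and a table of normalized signal that equals these counts divided by a size factor per library (100% of values within 0.05). STAR, Partek, DESeq2 and mm10 are named in the submitters' processing notes, with no versions, and the counting settings are not given in the sources used here. The listed genes have at least 10 counts in all. Molecular identifiers are not mentioned, so floors and intervals cover counting error only. The 95% interval of a ratio is the exact Poisson one for the 2 counts.

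Untreated libraries with the same number in the title (numbers 2 and 4, 2 libraries each) differed less than other untreated pairs (chi-square per degree of freedom 10.3 and 12.1 against 24.2 and more) and were summed, which gave 52 samples in 14 groups. They still differed by more than sampling noise. CPM used TMM-scaled library sizes, with a prior count of 2 for log2 values, and levels are not compared per length because 3′ reads do not scale with length. Counts were tested with edgeR 4.0.16 (R 4.3.3, limma 3.58.1): filterByExpr with a minimum count of 10, glmQLFit over all 14 groups, no block, Benjamini-Hochberg adjustment over 13169 genes, called under 0.05. The scripts were tested on simulated data. Alternatives were the replicate number as a block, DESeq2 1.42.0, RLE size factors, no filter, each replicate left out, only the groups compared, and separate untreated libraries.

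The replicate numbers were taken to pair the samples: deviations of same-numbered samples correlated in all 76 pairs (r 0.199 to 0.764). The comparisons share groups, so they are not independent. The 21 pairwise comparisons, 1 difference of changes and 2 tests over times were run on all genes. All members are named, list genes where called in aSyn-treated against untreated cells with or without the block (at most the 5 with the smallest p), and the 5 genes most like each member by r. The members and lists were chosen with earlier results of these data known. Sequences come from RefSeq tables on GRCm38.p6, and gene bounds from GENCODE M21 on GRCm38, the build that mm10 denotes.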

Additional observations from a re-analysis of the deposited data

Results flagged for a closer look

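In 25 of 60 member and group combinations with 4 samples, 1 sample lay far from the others by Dixon's criterion at 95%. Chance meets that criterion in about 1 of 20 groups, a rate that cannot be set against these genes: Saa3 and Lcn2, with 10 of the 25, were chosen for this spread, and the same 4 experiments recur in every group. The values are given as a description and test nothing.

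For Saa3, the aSyn-treated sample of experiment 4 lay apart, at 21177 CPM against 3730 CPM in the next sample. For Lcn2 it was experiment 4 in 9 groups. The aSyn-treated sample held 626 CPM, donors held 544, 591, 658 and 565 CPM at 15, 30, 150 and 300 min, and acceptors held 25.2, 14.3, 15.4 and 28.9 CPM at 15, 30, 60 and 150 min. For Cp, the ferroxidase ceruloplasmin, experiment 4 lay apart in aSyn-treated cells at 170 CPM and in donors at 15, 30 and 150 min at 180, 178 and 193 CPM. For Nos2, experiment 4 lay apart in aSyn-treated cells at 57.5 CPM, in donors at 15, 30, 150 and 300 min at 90.6, 42.4, 101 and 62.5 CPM, and in acceptors at 150 min at 5.77 CPM.

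Marco lay apart in experiment 3 instead, and only in cells that were not loaded. Its untreated sample held 19.1 CPM against 2.62 CPM in the next sample, and its acceptors held 33.9, 43.3, 39.3 and 57.3 CPM at 15, 30, 60 and 150 min against at most 5.52 CPM in the other experiments at those times.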

How the results depend on the processing

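The pairing by experiment number moved most calls. With the replicate block the members called were 5 of 6 (19.2% of all genes called) for aSyn-treated against untreated cells, 6 of 36 for acceptors against untreated cells and 22 of 36 for donors against acceptors, against 0 in each without it, and with all groups in the fit it changed no call between donors and aSyn-treated cells or over time. The alternatives with the block and a further change, and the single untreated libraries, were chosen after seeing the data. With the block and 1 replicate left out, these counts were 5, 5, 3 and 4 without replicates 1 to 4, then 3, 4, 2 and 1, and then 16, 13, 14 and 17. In the fits without replicates 1 to 3 for acceptors, 0.015% to 2.1%, 0.255% to 2.93% and 0% to 1.83% of all genes were called, and the other shares stand beside the results. With the block and only the groups compared in the fit, 1 of 4 tested members (Lcn2, adjusted p = 0.033 in edgeR's test), 7 of 30 tests of donors against acceptors, 0 of 18 of acceptors against untreated cells (Lcn2 did not pass the filter there) and, between donors and aSyn-treated cells and between 300 and 15 min, 1 each (Marco, of 36 and 10) were called. Without the block, separate untreated libraries gave 2 calls (Saa3 and Nos2) for aSyn-treated cells and DESeq2 gave 2, and RLE size factors, no filter, only the groups compared and each replicate left out gave 0 in every comparison. The log2 change of Lcn2 in acceptors reversed at 0 min without replicate 1 (-0.35) and without replicate 3 (-0.60, range to 1.35), at 30 min without replicate 4 (-0.85, range to 3.18, or -0.65 with the block) and at 300 min without replicate 4 (-1.07, range to 4.30), where the range is over the replicates left out. Saa3 in acceptors at 300 min also turned, from 1.66 to -0.82 without replicate 4. Of the 132 estimates of the members without the block, 3, 6, 18 and 21 changed sign without replicates 1 to 4, with 14, 14, 23 and 21 when the block was added, and 0 of those was called. The cause was not tested. In aSyn-treated cells the highest Saa3 level was 109 times the lowest, and 19.2 times without replicate 4, 95.8 times by library-total CPM and 112 times by the authors' normalized values. Lcn2, Hp and Nos2 rest on 0 to 32 counts in untreated samples, which limits their ratios. They passed the filter through the groups in which they are high, so neither the numbers of members called nor their p-values support anything.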
